A study of Mus musculus with 8 samples.

Results

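Map2 and Rbfox3 are widely used to mark neurons, and their 2 rows were followed here in cultured mouse hippocampal progenitors. They were taken by gene symbol from a matrix of 9140 genes and 30408 cells, and both symbols were found. The cells came from the dentate gyrus, a part of the hippocampus, of embryos harvested at embryonic day 18 according to the labels. C57BL/6J females had been mated to Kmt2d+/βgeo males, and cultures were made from littermates of either genotype. The Kmt2d+/βgeo group carries 1 copy of the allele Mll2Gt(RRt024)Byg of Kmt2d, a histone methyltransferase gene. The wild-type group is labelled with the strain C57BL/6J and an unaltered allele. All groups were first grown with EGF and FGF2. The day 0 groups were collected in that undifferentiated state, and the other groups at days 2, 4 and 8 after both growth factors were taken away. Each of the 8 groups is 1 library, so genotype, culture and library cannot be told apart within a day, and no test was made. Intervals below are 95% intervals that cover counting error only.

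Map2 encodes microtubule-associated protein 2, which binds and stabilises microtubules and in mature neurons is concentrated in the cell body and dendrites. Shorter forms of the protein are also made in immature neural cells and in parts of the glial lineage. Rbfox3 encodes the nuclear RNA-binding protein NeuN, a splicing regulator of the RBFOX family that is used as an antigen of mature neurons. In the dentate gyrus, stem cells can give rise to granule neurons, and both genes are commonly read at the end of that path.

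The libraries held 2534 to 4900 cells, with median total counts of 7926 to 23219 unique molecular identifiers (UMIs) per cell. A UMI marks 1 captured RNA molecule. Depth was lowest at day 8 under the Kmt2d+/βgeo label, and pairs of libraries shared 0 to 10 cell barcodes. Kmt2d itself was lower under the Kmt2d+/βgeo label at day 2 and higher on the other 3 days, with mean normalised counts of 0.193, 0.171, 0.295 and 0.290 at days 0, 2, 4 and 8 against 0.157, 0.197, 0.237 and 0.241 in the libraries labelled wild type. The sources used here do not give the place of the gene trap, so these 3′ tags do not check the genotype. At day 4 the labels parted no gene: 0 of 7459 genes reached an absolute log2 ratio of 1. A set of 29 genes parted the labels in 1 direction at days 0, 2 and 8, and in 29 of them the day 4 library labelled Kmt2d+/βgeo lay nearer to wild type. The genotype comparison at day 4 is given with that in view. The same doubt holds for the course of the Kmt2d+/βgeo series through day 4 and for any likeness of the labels on that day. Whether the day 4 label is right was not tested.

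The name neuronal was checked against other neuron genes, and the matrix could not bear it out. Of 11 neuron markers only Map2, Rbfox3 and Elavl3 had a row. Dcx, Tubb3, Stmn2, Snap25, Syt1, Elavl4, Nefl and Nefm were not among the genes of the matrix, nor was any of 8 neuroblast markers. Elavl3, which encodes a neuronal RNA-binding protein, had mean normalised counts of only 0.0110 to 0.0446 over the 8 libraries. Both genes are therefore called by name below and are not read as counts of neurons. The 5 microglia, 5 endothelial and mural and 3 ependymal markers had 0 rows as well, so these cell types could not be checked.

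Both genes are long and both are read here from their 3′ ends. Map2 (ENSMUSG00000015222) lies on chromosome 1 from 66175273 to 66442583 on the plus strand of GRCm38, and spans 267 kb with 24 annotated transcripts in GENCODE M21. Its last exon, from 66438792 to 66442583, is 3792 bases long. Rbfox3 (ENSMUSG00000025576) lies on chromosome 11 from 118489762 to 118911597 on the minus strand, and spans 422 kb with 10 transcripts. Its last exon, from 118489762 to 118491241, is 1480 bases long. Each gene holds 3 small genes of other kinds. Gm10558, an antisense gene from 66322276 to 66328796, overlaps an exon of Map2, while Gm24729 and Gm25411 sit in its introns. Gm11750, Gm25040 and Gm11749 sit in introns of Rbfox3. None of these 6 has a row in the matrix, and no exon of theirs touches either last exon.

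Map2 was present in most cells before differentiation began and was moderately higher at days 4 and 8. In the libraries labelled Kmt2d+/βgeo its mean normalised count, which is the UMI count divided by the cell's size factor, was 2.86 at day 0, 2.85 at day 2, 4.00 at day 4 and 3.90 at day 8. In the wild-type libraries it was 2.93, 3.22, 3.84 and 3.50 on the same days. Both series were highest at day 4, and in both the day 4 and day 8 levels lay above both earlier days. The doubt about the day 4 labels applies to this course too. The spread between cells of a library was of the same size as the mean, with standard deviations of 2.04 to 4.14.

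Over all UMIs, Map2 was at most 1.40-fold above day 0 of the same label. Against day 0 of the same label, the log2 ratio was -0.01 (interval -0.04 to 0.03) at day 2, 0.48 (0.45 to 0.52) at day 4 and 0.44 (0.40 to 0.49) at day 8 in Kmt2d+/βgeo. In wild type it was 0.14 (0.10 to 0.17), 0.39 (0.36 to 0.42) and 0.25 (0.22 to 0.29). The background to these values is wide: in Kmt2d+/βgeo 17.4%, 21.4% and 32.9% of compared genes reached an absolute log2 ratio of 1 at days 2, 4 and 8, and in wild type 13.6%, 18.5% and 27.3% did. Map2 reached it in none of the 6 comparisons. The median log2 ratio over all compared genes was itself 0.17 at day 4 and 0.11 at day 8 in Kmt2d+/βgeo, and 0.09 and 0.04 in wild type. Map2 stood above these medians on both days. On the mean of log2 values its day 8 difference in Kmt2d+/βgeo was 0.11, and thinned to 3000 UMIs per cell the log2 ratio there was 0.28.

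**Figure D1:**
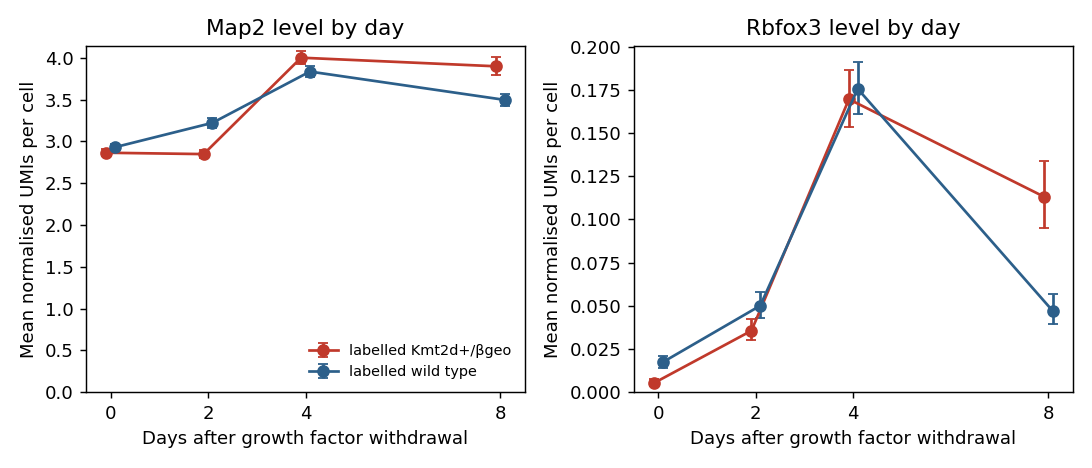
Mean normalised UMIs per cell (vertical axis, from 0) of Map2 at left and Rbfox3 at right, by days after growth factor withdrawal, with 1 point for each library and bars for the exact Poisson interval of the summed UMIs. Map2 lies between 2.85 and 4.00 in all 8 libraries, while Rbfox3 is highest at day 4 under both labels, at 0.170 and 0.176.

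Ordered by level, the 8 libraries ran for Map2 from Kmt2d+/βgeo day 2 and day 0 through wild-type day 0, day 2, day 8 and day 4 to Kmt2d+/βgeo day 8 and day 4. Of the 7 neighbouring pairs in this order, 3 did not differ beyond counting error. These were Kmt2d+/βgeo days 2 and 0, wild-type day 4 and Kmt2d+/βgeo day 8, and Kmt2d+/βgeo days 8 and 4. This order is that of all UMIs. Thinned to 3000 UMIs, the log2 ratio over day 0 in Kmt2d+/βgeo was 0.52 at day 4 and 0.28 at day 8. The ratio of Kmt2d+/βgeo day 8 over wild-type day 8 was then -0.000465, so its place in the order was not kept.

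Within a library, the share of cells with a Map2 UMI was higher in deeper cells. Over all cells it was 90.6%, 83.9%, 93.3% and 76.3% at days 0, 2, 4 and 8 in the libraries labelled Kmt2d+/βgeo, and 91.0%, 86.6%, 91.5% and 89.4% in wild type. At day 8 in Kmt2d+/βgeo the shallowest of 4 equal depth classes of cells, at a median of 2273 UMIs on the matrix genes, had 66.0% with Map2, and the deepest, at 5584 UMIs, 85.8%. Thinning sets every cell to 1 depth and leaves shallower cells out. At 3000 UMIs on the matrix genes, 809 of 2965 cells were left out at day 8 in Kmt2d+/βgeo and 0 to 30 elsewhere. The thinned shares were 58.3%, 56.0%, 68.7% and 66.1% in Kmt2d+/βgeo and 60.3%, 61.4%, 67.5% and 66.2% in wild type. At 3000 UMIs the shares of either label at day 8 were within each other's intervals, and days 4 and 8 lay above days 0 and 2 under both labels.

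Map2 UMIs were found in dividing cells too, although how many came from free RNA was not measured. Top2a, which encodes a topoisomerase needed to part chromosomes in mitosis, marks dividing cells. At day 0, 1134 Kmt2d+/βgeo cells and 1039 wild-type cells held at least 5 Top2a UMIs, and 95.6% (interval 94.2 to 96.7) and 96.7% (95.5 to 97.7) of them had a Map2 UMI. In cells with no Top2a UMI the shares were 87.4% and 89.3%. The dividing cells were deeper, with median depths of 16172 and 14967 UMIs against 9700 and 8222. Thinned, the difference turned to -1.89 points (-5.59 to 1.79) in Kmt2d+/βgeo and -2.21 points (-5.84 to 1.39) in wild type. The mean normalised count, which is scaled for depth, was lower in the dividing cells, at 2.64 against 2.98 in Kmt2d+/βgeo and 2.82 against 3.06 in wild type.

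The Map2 values carry a doubt that the Rbfox3 values carry less. Expressed in UMIs, 37.4% of the 26710 nonzero Map2 values lay within 0.01 of a whole number, against 87.3% of the 1455 nonzero Rbfox3 values and 86.8% of all values. Counts that are not whole arise where the counting tool divides a UMI between features, either other genes or the spliced and unspliced forms of 1 gene. Which of these applied to Map2 was not tested.

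Rbfox3 was rare at day 0, most frequent at day 4 and lower again at day 8. Its mean normalised count in the libraries labelled Kmt2d+/βgeo was 0.00536, 0.0356, 0.170 and 0.113 at days 0, 2, 4 and 8, from 30, 139, 420 and 137 UMIs. In wild type it was 0.0174, 0.0501, 0.176 and 0.0472, from 101, 173, 538 and 120 UMIs. Both series peaked at day 4. The day 4 library labelled Kmt2d+/βgeo lay near to wild type, so these peaks are not read as agreement between genotypes.

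Against day 0, the log2 ratio of Rbfox3 in Kmt2d+/βgeo was 2.73 (2.16 to 3.36) at day 2, 4.99 (4.45 to 5.57) at day 4 and 4.40 (3.82 to 5.02) at day 8. In wild type it was 1.53 (1.16 to 1.89), 3.34 (3.03 to 3.66) and 1.44 (1.05 to 1.84). Of all compared genes, 10.7%, 14.8% and 19% were higher past a log2 ratio of 1 in Kmt2d+/βgeo and 8.08%, 11.9% and 16.3% in wild type, while 6.74%, 6.61% and 13.9% and 5.56%, 6.6% and 10.9% were lower past it. Rbfox3 was among the higher ones at days 4 and 8 in Kmt2d+/βgeo and at day 4 in wild type. There it met the minimum mean of 0.1 only through the later library. Its place among the higher genes was thus fixed by that filter and adds no support. In the other 3 comparisons its mean lay under the minimum of 0.1 set for such a count. From day 4 to day 8 its level was lower by a log2 ratio of -0.58 (-0.87 to -0.30) in Kmt2d+/βgeo and -1.90 (-2.19 to -1.60) in wild type, and thinned to 3000 UMIs by -1.16 and -1.90. Of the 7 neighbouring pairs in the order of Rbfox3 levels, 2 did not differ beyond counting error, wild-type days 8 and 2 and the day 4 libraries of either label.

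The share of cells with an Rbfox3 UMI went the same way. It was 0.670%, 2.59%, 13.1% and 4.62% in Kmt2d+/βgeo and 2.00%, 3.95%, 13.0% and 3.58% in wild type at days 0, 2, 4 and 8. Thinned to 3000 UMIs it was 0.140%, 1.16%, 5.45% and 2.55%, against 0.432%, 1.81%, 5.30% and 1.5%. The day 4 peak thus held at equal depth and was of the same height under both labels, with the doubt about the day 4 labels given above. Most of these cells held a single UMI. Cells with at least 2 numbered 2, 14, 74 and 8 in Kmt2d+/βgeo and 8, 18, 77 and 10 in wild type, and the highest value in any cell was 4.67.

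**Figure D2:**
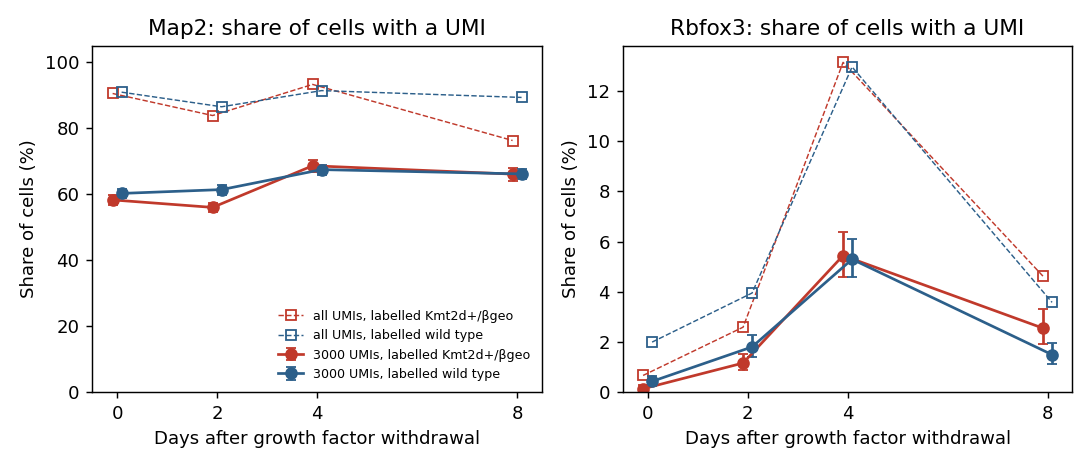
Share of cells with a UMI (vertical axis, percent, from 0) of Map2 at left and Rbfox3 at right, by days after growth factor withdrawal. Open squares use all UMIs, and filled circles use cells thinned to 3000 UMIs, with exact binomial intervals as bars; thinning brings Map2 at day 8 to 66.1% and 66.2% and leaves the Rbfox3 peak at day 4, at 5.45% and 5.30%.

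At day 0 the Rbfox3 share did not stand apart from that of dividing cells. Dividing cells should lack this gene of mature neurons, and among those with at least 5 Top2a UMIs it was found in 8 of 1134 cells, 0.705% (0.305 to 1.39), in Kmt2d+/βgeo and in 26 of 1039, 2.50% (1.64 to 3.65), in wild type. In cells with no Top2a UMI the shares were 0.725% and 1.88%, at median depths of 9700 and 8222 UMIs against 16172 and 14967 in the dividing cells. The differences were -0.02 points (-0.64 to 0.72) and 0.62 points (-0.41 to 1.86). The mean normalised count, which is scaled for depth, was lower in the dividing cells. It was 0.00437 against 0.00670 in Kmt2d+/βgeo and 0.0140 against 0.0217 in wild type, with no interval made. Free RNA was not measured, so low expression and background cannot be told apart at day 0, and any fold against day 0 rests on that level. Thinned to 3000 UMIs, both signs turned, with 0.265% (3 of 1131) in dividing against 0.113% in other cells of Kmt2d+/βgeo and 0.192% (2 of 1039) against 0.505% in wild type, and both differences spanned 0. At day 4 the share of 13.1% and 13.0% lay above the highest share in dividing cells at day 0. Within day 4, however, few cells had a Top2a UMI after thinning, and Rbfox3 was found in 10.6% (3.55 to 23.1, 5 of 47 cells) of them against 5.35% of the others in Kmt2d+/βgeo and in 6.94% (2.29 to 15.5, 5 of 72) against 5.26% in wild type. Here 1 Top2a UMI was asked for, a looser mark of division than the 5 used at day 0. With so few cells and such wide intervals, this comparison cannot decide whether the day 4 share stood above that of dividing cells.

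The Rbfox3 share at day 4 was not higher in deeper cells. The shallowest of the 4 depth classes had an Rbfox3 share of 14.8% in Kmt2d+/βgeo and 16.2% in wild type, and the deepest had 8.99% and 10.1%. Cells with an Rbfox3 UMI had median depths of 8652 and 7637 UMIs, under the 8976 and 8036 of cells without one. A Map2 UMI, in contrast, was found more often in deeper cells in all 8 libraries.

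Between the genotype labels, the intervals left out 0 on 3 of 4 days for Rbfox3 and on every day for Map2, whose ratios were small. Each ratio compares 2 libraries, and its interval does not cover the spread between cultures. The log2 ratio of Map2, Kmt2d+/βgeo over wild type, was -0.03 (-0.06 to -0.002) at day 0, -0.18 (-0.21 to -0.14) at day 2, 0.06 (0.02 to 0.10) at day 4 and 0.16 (0.11 to 0.21) at day 8. Against these, 1.55%, 2.84%, 0% and 4.87% of all compared genes reached an absolute log2 ratio of 1. The day 8 value turned to -0.09 on the mean of log2 values and to -0.000465 at 3000 UMIs, so it had no stable sign.

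For Rbfox3 the same ratio was -1.70 (-2.34 to -1.10) at day 0, -0.49 (-0.82 to -0.16) at day 2, -0.05 (-0.24 to 0.14) at day 4 and 1.26 (0.89 to 1.62) at day 8. The level under the Kmt2d+/βgeo label was thus lower at the first 2 days and higher at day 8. Past a log2 ratio of 1 in size, the higher genes made up 0.674%, 1.68% and 2.06% of all compared on days 0, 2 and 8, and the lower ones 0.871%, 1.15% and 2.81%. At days 0 and 2 the mean of Rbfox3 lay under the minimum of 0.1 in both libraries, so it was not among the compared genes. At day 8 Rbfox3 met that minimum only through the Kmt2d+/βgeo library, so passing a log2 ratio of 1 was fixed by the filter. At day 0 neither share stood above that of dividing cells, which were deeper, and at day 8 the Kmt2d+/βgeo library had the lowest depth. Thinned to 3000 UMIs, the day 8 ratio was 0.81 and the day 0 ratio -1.70. At 1500 UMIs, which left out 91 of the Kmt2d+/βgeo cells and none of the wild-type cells, the day 8 shares were 1.84% and 0.592%. At 5000, which left out 2360 of 2965 and 296 of 3212 cells, they were 2.98% and 2.19%. The direction was the same at all 3 depths, and the size was not. With at least 2 UMIs asked for, in 8 and 10 cells not matched for depth, the shares were 0.270% and 0.311%. The day 8 library labelled Kmt2d+/βgeo also had less Apoe: the summed normalised count of the 6 astrocyte markers in the matrix was 109.5 there and 250.0 in wild type, of which Apoe made up 94.7 and 230.0, and its part in the Rbfox3 difference was not tested. Over all 8 libraries that sum ran from 17.8 to 267, and 3 defining astrocyte markers, Gfap, Aqp4 and Aldoc, had no row.

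The 2 genes were only loosely tied to each other within cells. At day 4, where Rbfox3 was most frequent, Map2 was found in 93.4% of 333 Rbfox3-positive and 93.3% of 2201 other Kmt2d+/βgeo cells, a difference of 0.07 points (-3.27 to 2.54). In wild type it was found in 92.3% of 455 and 91.3% of 3056 cells, a difference of 0.98 points (-1.99 to 3.34). Thinned to 3000 UMIs, the differences were 0.95 points (-7.37 to 8.26) and 8.77 points (1.95 to 14.6), so that only the wild-type one left out 0. Its mean normalised count was 4.47 against 3.93 in Kmt2d+/βgeo and 4.55 against 3.73 in wild type, higher in the Rbfox3-positive cells under both labels.

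On the other days the difference in Map2 share had no common sign. It was -4.40 points (-21.2 to 3.94) and 8.15 points (3.50 to 9.35) at day 0, with the library labelled Kmt2d+/βgeo first. At day 2 it was 6.83 points (0.41 to 10.9) and 1.79 points (-4.17 to 6.02), and at day 8 it was -8.08 points (-16.4 to -0.74) and 2.89 points (-3.57 to 6.72). At day 8 in Kmt2d+/βgeo the Rbfox3-positive cells thus held Map2 less often, in 94 of 137 cells. Thinned to 3000 UMIs, the differences in wild type were 20.8 points at day 0, with an interval of -0.24 to 32.2, and 7.61 points at day 2, and in Kmt2d+/βgeo at day 8 -13.8 points. With at least 2 Rbfox3 UMIs, in 14 cells, Kmt2d+/βgeo at day 2 turned to -5.15 points. The partial correlation of the 2 genes across cells, taken at equal log2 depth, was between -0.03 and 0.07 in the 8 libraries. In sparse counts so weak a correlation is read with caution. Its mean over the 8 libraries was 0.033. Of the 8922 genes ranked against Rbfox3, the central 95% lay between -0.025 and 0.030, and the highest was 0.10. Map2 thus stood slightly above that range. For the genes ranked against Map2 the same range was -0.050 to 0.068, and 0.033 lay inside it.

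The genes whose pattern across cells was most like that of Map2 were led by Rev3l, Olig2, Myt1, Lhfpl3 and Chd7. Of 8 oligodendrocyte lineage markers only Olig2 had a row, so no lineage is read from them. The partial correlation was averaged over the 8 libraries, for the 8921 genes other than Map2 with a UMI in at least 1% of cells of every library. Elavl3 and Rbfox3, the other neuron markers with a row, did not meet that limit. No neuron marker could therefore appear in the ranking against Map2. Rev3l, the catalytic subunit of a DNA polymerase that bypasses damage, led with a mean r of 0.21. Olig2, a transcription factor that specifies oligodendrocyte precursors, followed with 0.19. Next came Myt1 at 0.18, a zinc finger factor of neural progenitors and oligodendrocyte precursors, Lhfpl3 at 0.18, a gene strongly expressed in oligodendrocyte precursors, and Chd7 at 0.16, a chromatin remodeller. All 5 had a positive r in all 8 libraries. Over all ranked genes the median r was 0.01, and 55 genes lay above 0.1.

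The genes most opposed to Map2 were led by Dbi, Mt2 and Mt3. Dbi, which encodes an acyl-CoA-binding protein rich in glia, had a mean r of -0.24. The metallothionein genes Mt2 and Mt3 both had -0.19. All 6 astrocyte markers and all 4 progenitor markers ranked had a negative mean r with Map2, down to -0.19 for Apoe, an apolipoprotein made by astrocytes, and -0.17 for Vim, an intermediate filament of progenitors and glia, and up to -0.005 for S100b and -0.01 for Pax6. Over all 8921 ranked genes 5825 had a mean r above 0. Dbi and Mt2 were negative in all 8 libraries, and Mt3 was negative in all but the 2 day 0 libraries. The points of each r are cells of 1 library and share its depth and composition, so it is a description.

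This pattern was widest at day 4. At day 4 the r of Map2 with Olig2 was 0.35 in Kmt2d+/βgeo and 0.36 in wild type, whereas at day 0 it was 0.04 and 0.06. At day 2 it was 0.22 and 0.15, and at day 8 it was 0.12 and 0.19. At day 0 the leading genes were others: Map4k4, a kinase, with 0.19 and 0.14, then Top2b, a topoisomerase, with 0.17 in Kmt2d+/βgeo and Ptprz1, a receptor phosphatase of progenitors, with 0.14 in wild type, and Rev3l in place 3 in both. At day 2 Rev3l led in both libraries, with 0.24 and 0.21, followed by Chd7 and Olig2 in Kmt2d+/βgeo and by Lrrn1 and Polr3k in wild type. At day 4 the first 3 were Chd7, Olig2 and Myt1 in Kmt2d+/βgeo and Olig2, Rev3l and Myt1 in wild type. At day 8 Lhfpl3 led in both, with 0.17 and 0.22, followed by Myt1 and the glutamate receptor gene Gria2 in Kmt2d+/βgeo and by Olig2 and the protocadherin gene Pcdh15 in wild type.

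**Figure D3:**
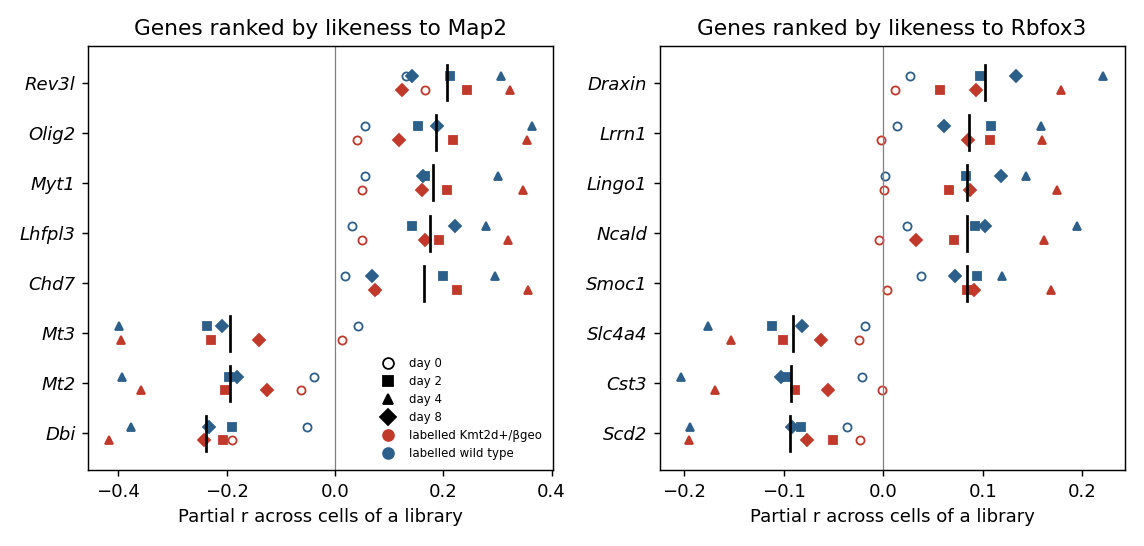
Partial correlation across the cells of a library (horizontal axis) with Map2 at left and Rbfox3 at right, for the 5 genes with the highest and the 3 with the lowest mean over the 8 libraries. Each symbol is 1 library, shaped by day and coloured by label, and the black bar is the mean; the day 4 libraries lie farthest from 0, at 0.35 and 0.36 for Olig2 with Map2.

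Few cells held much Map2. Cells with at least 5 Map2 UMIs after thinning, a limit chosen after the values were seen, numbered 98 of 2534 in Kmt2d+/βgeo and 129 of 3511 in wild type at day 4, or 3.87% and 3.67%. On the other days they made up 0.906% to 1.85% of cells. The variance of Map2 over its mean after thinning was 1.73 and 1.59 at day 4, the highest of the 4 days under each label, and 1.2 to 1.44 on the others.

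Olig2 and Lhfpl3 were among the genes most correlated with Map2 in these same cells, so the values that follow describe that correlation and add no support to it. Olig2 was found in 80.6% (of 98) of the Map2-rich day 4 cells in Kmt2d+/βgeo and in 82.2% (of 129) in wild type, against 27.8% and 27.9% of the rest. Lhfpl3 was found in 39.8% and 36.4% against 5.67% and 4.73%, and Bcas1, a gene of differentiating oligodendrocytes, in 25.5% and 15.5% against 3.41% and 3.19%. These genes lay far above the rest under both labels. Elavl3, the neuron marker with a row besides the 2 genes, also lay far above the rest, in 9.18% and 7.75% against 0.780% and 0.710%. The intervals did not overlap under either label. As a ratio of shares its gap was wider than theirs, although few Map2-rich cells held it. No lineage is read from these cells. Rbfox3 was found in 12.2% and 6.98% against 5.17% and 5.23%. Gja1, the gap junction gene of astrocytes, was found in 9.18% and 13.2% against 39.7% and 40.8%. For Olig2 the gap in points was smaller on the other days. It was found in 76.9% and 88.6% of the Map2-rich cells against 71.9% and 85.9% at day 0. At day 2 it was found in 86.6% and 82.9% against 54.9% and 65.2%, and at day 8 in 35.1% and 48.9% against 23.6% and 14.0%. Lhfpl3 was found in 41.8% and 26.3% against 12.2% and 11.9% at day 2, and in 18.9% and 38.3% against 4.34% and 5.54% at day 8. In wild type its gap at day 8 was thus no smaller than at day 4. At day 8 Gja1 was found in 45.9% against 42.8% in Kmt2d+/βgeo and in 38.3% against 56.5% in wild type. The Map2-rich day 4 cells had been shallower before thinning, with median depths of 7181 and 6016 UMIs against 8964 and 8029.

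The genes most like Rbfox3 were led by Draxin, Lrrn1 and Lingo1. Draxin, a secreted axon guidance protein, led with a mean r of 0.10, followed by Lrrn1, a leucine-rich repeat membrane protein, at 0.09, and by Lingo1, a membrane protein that restrains oligodendrocyte differentiation, Ncald, a neuronal calcium sensor, and Smoc1, a secreted matrix protein, each at 0.08. Olig2 ranked 12 of 8922 with 0.07. The lowest were Scd2, a lipid desaturase, Cst3, a protease inhibitor rich in astrocytes, and Slc4a4, a bicarbonate transporter of astrocytes, each at -0.09. Again all 6 astrocyte markers and all 4 progenitor markers ranked had a negative mean r, where 5153 of all 8922 ranked genes lay above 0. Only Draxin lay above 0.1, which is small, and Rbfox3 was in few cells. Elavl3 was left out of this ranking too, so Map2 was the only neuron marker in it.

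In single libraries the leading genes of Rbfox3 were steady only from day 4. Draxin led at day 4 with 0.18 in Kmt2d+/βgeo and 0.22 in wild type. It was followed by Ptma and the growth factor gene Kitl in the former and by Olfm2 and Ncald in the latter. At day 8 Draxin led in wild type with 0.13, ahead of Lingo1 and Ncald. In Kmt2d+/βgeo it was second to the predicted gene Gm49797, with Smoc1 next. At day 2 the leaders were Txn1, Pde2a and Tacc2 in Kmt2d+/βgeo and Pip5k1b, Lrrn1 and Rev3l in wild type, all under 0.13. At day 0 no gene passed 0.08 in either library; Gm9828, Atp9a and Eaf2 led in Kmt2d+/βgeo and Pcdh15, Fkbp4 and Fpgt in wild type.

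Cells with an Rbfox3 UMI were compared with the other cells of their library, gene by gene. Draxin and Lingo1 were leading correlates of Rbfox3 in the same cells, and Olig2 ranked 12 of 8922, so their values repeat that correlation. At day 4 Draxin was higher in them by a log2 ratio of 0.78 in Kmt2d+/βgeo and 1.00 in wild type, Lingo1 by 0.69 and 0.65, and Olig2 by 0.60 and 0.67. Prox1, a homeobox factor of granule neurons that is also made in oligodendrocyte precursors, was higher by 0.46 and 0.66. Fabp7, a fatty-acid-binding protein of radial glia, was lower by -0.83 and -0.65, Gja1 by -0.38 and -0.53, and Apoe by -0.35 and -0.42. The direction of each was the same under both labels, with the doubt about the day 4 labels given above. Map2 was higher by 0.18 and 0.29, and Mapt, which encodes tau, by 0.36 and 0.43.

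At day 8 the wild-type library kept these directions and the library labelled Kmt2d+/βgeo kept them in part. In wild type Olig2 was higher in the 115 Rbfox3-positive cells by 0.83 and Prox1 by 0.88. In the 137 positive cells of Kmt2d+/βgeo the values were 0.01 and -0.01. Draxin was higher in both, by 0.85 in Kmt2d+/βgeo and 1.45 in wild type. Ranked by the smaller of the 2 day 8 ratios, the leading genes were Cdc25a, a cell-cycle phosphatase, with 1.18 in Kmt2d+/βgeo and 1.11 in wild type, Smoc2, a secreted matrix protein, with 1.09 and 1.33, Fam118a with 1.02 and 1.26, Glce, an enzyme of heparan sulphate synthesis, with 1.05 and 0.96, and Epb41, a membrane skeleton protein, with 0.94 and 0.88. The ranking kept genes with a mean of at least 0.1 in the Rbfox3-positive cells of both day 8 libraries. Low genes could thus enter it through the cells where they were high, so their ratios add no support. Low genes lead this ranking, and the positive cells are few.

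**Figure D4:**
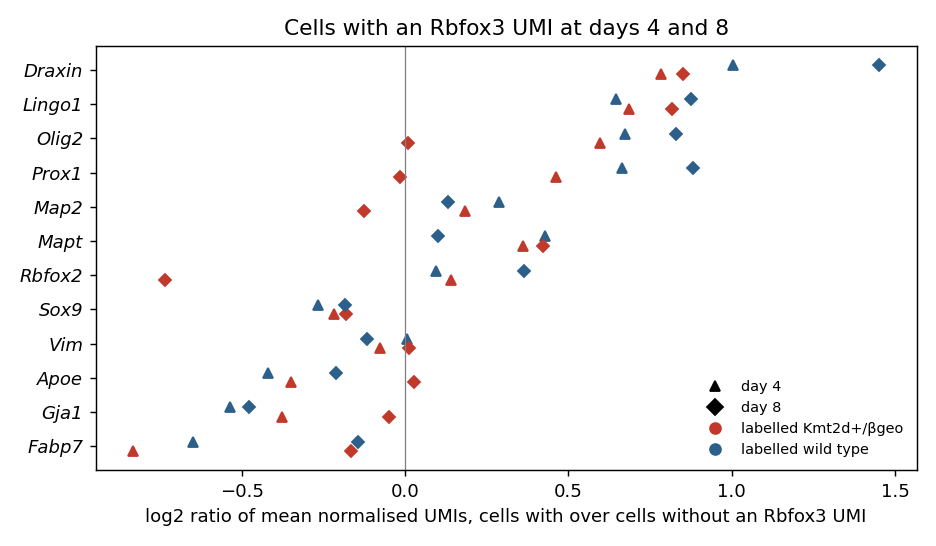
Log2 ratio of mean normalised UMIs, cells with an Rbfox3 UMI over the other cells of the same library (horizontal axis), for 12 genes at days 4 (triangles) and 8 (diamonds), coloured by label. Draxin and Lingo1 lie to the right of 0 in all 4 libraries, and Olig2 and Prox1 lie near 0 only at day 8 in Kmt2d+/βgeo, at 0.01 and -0.01.

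Rbfox3 was more frequent in cells with Olig2 at days 2, 4 and 8. Olig2 was among the genes most correlated with both members in these same cells, ranked 2 of 8921 with Map2 and 12 of 8922 with Rbfox3. Splits by Olig2 therefore describe those correlations and add no support to them. At day 2 an Rbfox3 UMI was found in 1.85% (50 of 2710) of Olig2-positive and 0.320% (7 of 2190) of other Kmt2d+/βgeo cells, and in 2.31% (62 of 2686) and 0.850% (12 of 1412) of wild-type cells. At day 4 it was found in 8.19% (62 of 757) against 4.28% (76 of 1777) in Kmt2d+/βgeo and in 9.04% (95 of 1051) against 3.70% (91 of 2460) in wild type. The share was higher with Olig2 in all 4 of these libraries, yet most day 4 cells with Rbfox3 in Kmt2d+/βgeo had no Olig2 UMI. At day 8 it was 3.50% (18 of 514) against 2.25% (37 of 1642) in Kmt2d+/βgeo, where the intervals of both shares overlapped, and 3.88% (18 of 464) against 1.09% (30 of 2743) in wild type, where they did not.

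Map2 followed the split by Olig2, which likewise restates their correlation, most widely at day 4. Its mean after thinning was 2.03 UMIs in Olig2-positive and 1.14 in other cells of Kmt2d+/βgeo and 1.94 against 1.08 in wild type at that day. At day 0 the means were 1.00 against 0.941 and 1.01 against 0.953. At day 2 they were 1.11 against 0.802 in Kmt2d+/βgeo and 1.18 against 0.939 in wild type. At day 8 they were 1.3 against 1.16 and 1.57 against 1.13. Map2 in cells with no Olig2 UMI was thus also higher at days 4 and 8 than at day 0 under both labels. Over the same days the share of thinned cells with Olig2 was lower each time, 71.9%, 55.3%, 29.9% and 23.8% in Kmt2d+/βgeo and 85.9%, 65.5%, 29.9% and 14.5% in wild type.

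**Figure D5:**
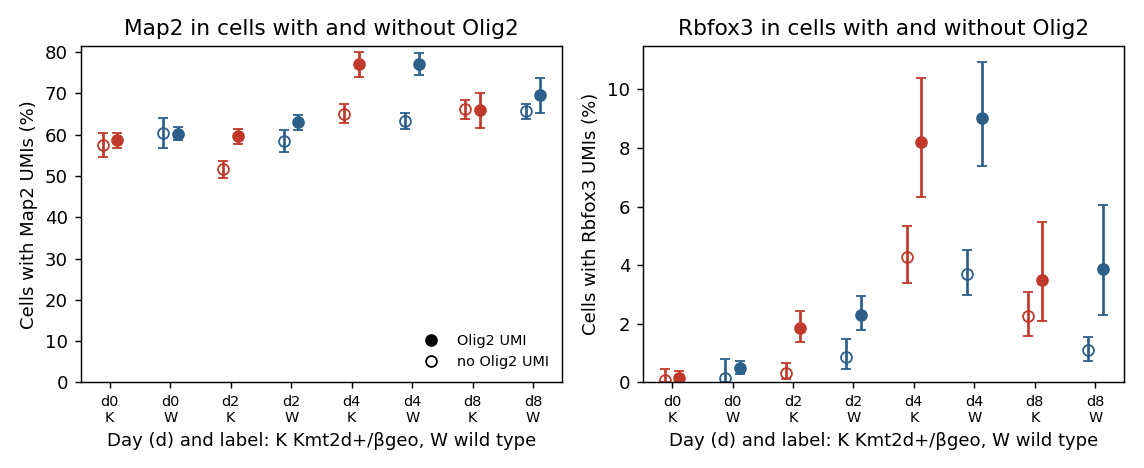
Share of cells with Map2 UMIs (left) and Rbfox3 UMIs (right) in percent, in cells thinned to 3000 UMIs and split by an Olig2 UMI, for each library (d, day; K, labelled Kmt2d+/βgeo; W, wild type). Bars are exact binomial intervals. At day 4 filled points (with Olig2) lie above open points (without) for both genes under both labels. For Rbfox3 they lie at 8.19% and 9.04% against 4.28% and 3.70%. The split restates the correlation of both genes with Olig2 in the same cells.

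The split by Slc1a3, a glutamate transporter of astrocytes and progenitors, ran the other way. Slc1a3 was among the genes most opposed to both Map2 and Rbfox3 in these same cells, ranked 8914 of 8921 and 8919 of 8922. Its values therefore repeat that choice and add no support. At day 4 the mean of Map2 after thinning was 3.17 UMIs in 172 cells with no Slc1a3 UMI and 1.28 in 2362 cells with one in Kmt2d+/βgeo, and 3.0 in 229 against 1.22 in 3282 cells in wild type. Rbfox3 was found in 7.56% against 5.29% of them in Kmt2d+/βgeo, where the intervals overlapped, and in 11.4% against 4.88% in wild type. Split by the progenitor marker Sox9, the day 4 shares of Rbfox3 had no common direction. With and without Sox9 they were 5.83% and 4.53% in Kmt2d+/βgeo and 4.26% and 7.54% in wild type. Cells with Elavl3 were rare, 28 and 34 at day 4, and their Map2 means were 3.61 and 2.91 against 1.39 and 1.32 in the other cells. Rbfox3 was found in 1 and 2 of them, 3.57% and 5.88%, against 5.47% and 5.29% of the other cells. At day 8 in wild type it was found in 3 of 27 cells with Elavl3, 11.1%, against 1.42%.

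The relatives of the 2 genes did not move as a family. Rbfox2, the member of the RBFOX family that is also active outside neurons, had mean normalised counts of 0.158 to 0.222 over the 8 libraries and was highest at day 0, while Rbfox1 has no row. Mapt, like Rbfox3, was highest at day 4, with 0.417, 1.45, 2.56 and 0.927 in Kmt2d+/βgeo and 0.617, 1.77, 2.62 and 1.45 in wild type at days 0, 2, 4 and 8. Map1b, an early microtubule protein of growing axons, ran otherwise, at 1.53, 1.09, 1.04 and 2.92 and at 1.66, 0.600, 1.01 and 2.63. Map4, the form found in most cell types, was higher at day 8 than at day 0 by a log2 ratio of 0.69 and 1.04. Map1a was higher by 1.25 and 1.36, and Map6, which protects microtubules from cold, by 1.67 and 0.64.

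Gene lists around the 2 genes, chosen with earlier results of these data known, were read at day 8 against day 0. Of 45 microtubule-associated proteins, Map2 itself among them, 33 had a row. In Kmt2d+/βgeo 30 of them were compared, 8 higher and 3 lower with a median of 0.38, and in wild type 31 were compared, 8 higher and 4 lower with a median of 0.10. Over all compared genes 1477 of 7765, 19%, were higher and 1078, 13.9%, lower in Kmt2d+/βgeo, with a median of 0.11, and 1264 of 7737, 16.3%, were higher and 846, 10.9%, lower in wild type, with a median of 0.04. The same shares are the background to every list that follows. On the mean of log2 values the split of all genes past the limit was different: 29.3% of 273 were higher in Kmt2d+/βgeo and 43.1% of 225 in wild type, against 57.8% and 59.9% on the main scale. Mtcl1, which links microtubules to cell polarity, was higher by 1.85 and 2.45. Mapre3, which binds growing microtubule ends, was higher by 1.33 and 1.12. Map1a and Mapt were the other leading members. Nav1 and Nav2, neuron navigators that steer growing processes, were lower by -2.07 and -2.68 and by -1.44 and -1.34, and Map7d2 by -1.40 and -1.21. Of 7 tubulins and tubulin folding factors with a row, 0 were higher and 2 lower in Kmt2d+/βgeo, and 0 of 6 compared passed in wild type. Their medians were -0.47 and 0.06.

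Of 17 compared kinases and phosphatase subunits that act on Map2 and tau, 4 were higher and 1 lower in Kmt2d+/βgeo with a median of 0.39, and 3 were higher and 1 lower in wild type with a median of -0.09, near the 19% and 16.3% of all genes that were higher. Ppp2r2b and Ppp2r2c, regulatory subunits of the phosphatase PP2A, were higher by 3.08 and 3.68 and by 1.86 and 1.58. Mapk10, the neuronal JNK kinase, was higher by 2.72 and 2.55. Prkar2b, a regulatory subunit of protein kinase A, which docks on Map2, was lower by -1.75 and -1.12. In the RBFOX family and other RNA-binding proteins, 2 of 22 compared were higher and 0 lower in Kmt2d+/βgeo, with a median of -0.28. In wild type 1 of 21 was higher and 3 lower, with a median of -0.41. Rbfox3 itself is on this list and was 1 of the 2 higher in Kmt2d+/βgeo. It met the minimum mean of 0.1 there only through day 8, and in wild type it was not compared. Msi1 was higher in both, by 3.47 and 3.02. It encodes Musashi, an RNA-binding protein of neural stem cells.

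Genes of neurogenic regulation had few members past the limit. Of 14 compared in each label, 0 were higher and 3 lower in Kmt2d+/βgeo with a median of 0.05, and 1 was higher and 2 lower in wild type with a median of -0.29, beside 19% and 16.3% of all genes higher and 13.9% and 10.9% lower. Pbx3 and Zeb1, a homeobox and a zinc finger factor of immature cells, were lower by -2.94 and -2.62 and by -2.10 and -2.58. Of 49 genes on this list 17 had a row.

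Adhesion and synapse genes had higher members and lower ones. Of 15 compared axon, neurofilament and adhesion genes, 7 were higher and 2 lower in Kmt2d+/βgeo with a median of 0.73, and 4 were higher and 2 lower in wild type with a median of 0.65, beside the same 19% and 16.3% of all genes higher and 13.9% and 10.9% lower. Cntn1, a contactin, was higher by 4.35 and 4.64, Dpysl5, a collapsin response mediator, by 2.03 and 2.73, Nrcam, an adhesion molecule, by 2.66 and 1.80, and Ank2, a membrane anchor, by 1.69 and 1.18. Kif21b, a kinesin, was lower by -2.55 and -1.61 and Ank3, the anchor of the axon initial segment, by -1.85 and -1.52. Of 22 compared synapse, channel and receptor genes, 8 were higher and 3 lower in Kmt2d+/βgeo with a median of 0.68, and 7 were higher and 5 lower in wild type with a median of 0.05. Gabrb1, a subunit of the GABA-A receptor, was higher by 4.58 and 4.94, and Cacna1a, a calcium channel, by 1.62 and 1.40. Camk2b, a synaptic kinase, was lower by -2.21 and -3.15 and Gria3, a glutamate receptor subunit, by -1.04 and -1.11.

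Within cells the ties of these lists to either gene were weak, and most list members lay above 0 in some lists and not in others. With Map2, 26 of 32 ranked microtubule-associated proteins had a mean r above 0, with a median of 0.02, beside a median of 0.01 over all 8921 ranked genes, of which 5825 lay above 0. Of the RNA-binding proteins 20 of 22 lay above 0 with Map2, and of the neurogenic regulators 15 of 16 did so with Map2, at a median of 0.02, and 15 of 16 with Rbfox3, at a median of 0.02. The highest were Myt1 at 0.18 among the neurogenic regulators, Nav2 at 0.13 among the microtubule-associated proteins, Nova1 at 0.10 among the RNA-binding proteins, Basp1 at 0.11 among the axon genes and Gria2 at 0.09 among the synapse genes. Gabrb1 had -0.05 with Map2 and -0.04 with Rbfox3, and Ank2 -0.04 and -0.06, so these 2 genes of the neuronal lists ran slightly against both. With Rbfox3, 14 of 29 synapse genes lay above 0, with a median of -0.0001, beside 5153 of 8922 of all ranked genes. In the Rbfox3-positive cells at day 4, 10 of 25 compared synapse genes in Kmt2d+/βgeo and 11 of 24 in wild type had a ratio above 0, beside 4320 of 7566 and 4391 of 7504 over all genes. None of the synapse genes reached a log2 ratio of 1, and over all genes 7 were higher and 4 lower by that much in Kmt2d+/βgeo and 5 and 7 in wild type. Of 15 compared neurogenic regulators 14 had a ratio above 0 under either label, with medians of 0.16 and 0.26 beside 0.04 and 0.04 over all genes.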

How the data were processed

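Single-cell 3′ libraries (10x Chromium v3) of cultured hippocampal progenitors were used, 1 for each of 8 groups of genotype label and day. Per the study's methods and the labels, the authors counted UMIs with Alevin (Salmon 1.3.0) on GRCm38, took spliced counts, removed low-quality cells and likely doublets, left out mitochondrial genes and genes in few cells, and deposited size-factor scaled log2 values. The deposited cell table gives total estimated counts per cell. The annotation release is named v25 in the methods; 9062 of the 9140 genes had the coordinates of GENCODE M21, which was used for gene models.

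The log2 values were turned back to normalised counts, which summed to 8707.1 in every cell. The commonest nonzero value of a cell was taken as 1 UMI, and depth on the matrix genes is the sum of these estimated counts. Cells were thinned without replacement to 3000 UMIs after rounding. Levels were compared as log2 ratios of mean normalised counts, and a gene was counted at an absolute log2 ratio of 1 with a mean of at least 0.1 in either library. Partial correlations with log2 values, given log2 depth, were taken within each library. Intervals at the 95% level are exact binomial for shares, exact Poisson for levels, and Newcombe for differences. For ratios, the exact conditional interval of the summed UMIs was shifted to centre on the ratio of mean normalised counts. Some ratios of the summed UMIs themselves lay outside these shifted intervals. UMIs are molecules, but the intervals cover counting error only. With 1 library per group no test was made. Scripts were tested on simulated counts and run with Python 3.11.15, numpy 2.4.6 and scipy 1.17.1.

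Alternatives changed the scale, the depth, the UMI limit, the filter and the correlation. Named were the members, their relatives, the 5 highest and 3 lowest mean correlations and 3 highest per library, up to 4 list members per direction past the limit at day 8 in both labels, and the 5 genes leading in Rbfox3-positive cells at day 8. Some list members that this rule names are not reported here. Bcas1, Slc1a3, Lingo1, Draxin and Fabp7 in the cell splits, Rbfox3-positive cells at day 4, and list extremes in the correlations were chosen after values were seen. The members and lists were chosen with earlier results of these data known. The labels give embryonic day 18, whereas the methods name another day.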

Additional observations from a re-analysis of the deposited data

Results flagged for a closer look

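Both genes were set apart because the difference between the genotype labels changed sign between days. For Rbfox3 the log2 ratio, Kmt2d+/βgeo over wild type, was -1.70 at day 0 and -0.49 at day 2 but 1.26 at day 8, each with a counting interval that left out 0. The day 0 shares of 0.670% and 2.00% did not stand above those of dividing cells, which were deeper. At 3000 UMIs per cell the day 8 ratio was 0.81.

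For Map2 the log2 ratio was -0.0330 at day 0 and -0.18 at day 2 but 0.0611 at day 4 and 0.16 at day 8. The day 8 value was -0.000465 at 3000 UMIs per cell. With 1 library per label and day, the difference between days was not tested for either gene.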

How the results depend on the processing

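No paired analysis was possible because no 2 groups share 2 or more replicate numbers, each group being 1 library. Days give 4 pairs of libraries across the genotype labels, which were not tested. All 20 level ratios stayed inside their counting intervals without the deepest 5% of cells, as did all 8 co-expression differences within 10 depth bins, and the leading 5 genes were kept in part or whole under each correlation setting. What depth limits is the share of cells. At 5000 UMIs, 2360 of the 2965 day 8 cells labelled Kmt2d+/βgeo were left out, so that share rests on the deepest cells. In the order of days 0, 2, 4 and 8, the share with a Map2 UMI was 36.2%, 35.1%, 47.0% and 45.1% in Kmt2d+/βgeo and 38.3%, 40.1%, 45.2% and 43.8% in wild type at 1500 UMIs per cell, 58.3%, 56.0%, 68.7% and 66.1% in Kmt2d+/βgeo and 60.3%, 61.4%, 67.5% and 66.2% in wild type at 3000, and 74.7%, 71.8%, 82.7% and 82.0% in Kmt2d+/βgeo and 76.8%, 77.9%, 81.1% and 82.2% in wild type at 5000. With at least 2 UMIs asked for it was 73.6%, 58.0%, 79.7% and 44.5% in Kmt2d+/βgeo and 72.7%, 63.3%, 74.9% and 68.7% in wild type. The share with an Rbfox3 UMI was 0.0924%, 0.633%, 2.49% and 1.84% in Kmt2d+/βgeo and 0.288%, 0.659%, 2.31% and 0.592% in wild type at 1500, 0.140%, 1.16%, 5.45% and 2.55% in Kmt2d+/βgeo and 0.432%, 1.81%, 5.30% and 1.5% in wild type at 3000, 0.371%, 1.71%, 8.01% and 2.98% in Kmt2d+/βgeo and 1.08%, 2.54%, 7.34% and 2.19% in wild type at 5000, and 0.0462%, 0.286%, 2.92% and 0.270% in Kmt2d+/βgeo and 0.165%, 0.439%, 2.19% and 0.311% in wild type with at least 2 UMIs. The day 4 share of Rbfox3 was the highest of its label in each of these settings.

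On the mean of log2 values, which compresses differences of rare genes, Map2 at days 2, 4 and 8 over day 0 was -0.0791, 0.32 and 0.11 in Kmt2d+/βgeo and 0.0180, 0.22 and 0.15 in wild type, and Rbfox3 0.0257, 0.144 and 0.0731 in Kmt2d+/βgeo and 0.0276, 0.135 and 0.0248 in wild type. Kmt2d+/βgeo over wild type was -0.0852 for Map2 at day 8, with the sign turned, and -0.0117, -0.0136 and 0.0367 for Rbfox3 at days 0, 2 and 8. At 3000 UMIs, Map2 over day 0 was 0.52 and 0.28 at days 4 and 8 in Kmt2d+/βgeo, and -0.000465 over wild type at day 8. Rbfox3 was 2.13 and 3.72 over day 0 at days 2 and 4 in wild type, and 0.81 over wild type at day 8. With pooled UMIs, Map2 was 0.39 at day 8 over day 0 in Kmt2d+/βgeo, 0.0886 and 0.31 at days 2 and 4 in wild type, and -0.10 and 0.0658 over wild type at days 0 and 8. The cause of these shifts was not tested.

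The difference in Map2 share by Rbfox3 was 20.8, 7.61 and 8.77 points in wild type at days 0, 2 and 4 at 3000 UMIs. With 2 or more Rbfox3 UMIs, in 2 to 74 cells, it was 9.39, -5.15, 3.98 and -26.7 points in Kmt2d+/βgeo and 7.96 in wild type at day 2. Dividing cells differed in Map2 by -1.89 and -2.21 points at 3000 UMIs and by 5.44 and 3.04 with Top2a at 1 UMI. The cause of these changes was not tested. Of the leading 5 genes, 3 were kept for Map2 by rank correlation and 3 for Rbfox3 after thinning. Genes past the log2 limit over day 0 numbered 100, 144 and 273 in Kmt2d+/βgeo and 71, 141 and 225 in wild type on the mean of log2 values, of which 47%, 49.3%, 29.3%, 54.9%, 47.5% and 43.1% were higher, against 61.3%, 69.1%, 57.8%, 59.3%, 64.3% and 59.9% on the main scale. They numbered 623, 791 and 1302 and 505, 697 and 1071 with a minimum mean of 0.5. Between labels, 2, 10 and 30 genes passed at days 0, 2 and 8 on the mean of log2 values, 27, 83 and 176 with a minimum mean of 0.5, and 210 at day 0 with no minimum. The share higher was then 40% at day 2 and 13.3% at day 8 on the mean of log2 values and 44.6% at day 2 with a minimum mean of 0.5, against 59.3% and 42.3%.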
